A study of Rattus norvegicus with 18 samples.

Results

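The 7 genes followed here are used as surface or membrane genes of oligodendrocyte precursors, or that accompany them: Pdgfra, Cspg4, Lhfpl3, Cd9, Gpr17, Tmem255b and Dbndd2. They were chosen by gene symbol in the platform annotation, with all probe sets of a symbol taken. Of the 7 genes, 6 had a probe set, 1 each, among 31042 tested probe sets and 14217 named genes. No probe set carried the symbol Gpr17, the gene of a G protein-coupled receptor of committed precursors, and it is named only. The probe sets were 1370941_at for Pdgfra, 1368685_at for Cspg4, 1383419_at for Lhfpl3, 1371499_at for Cd9, 1374899_at for Tmem255b and 1372250_at for Dbndd2, so each gene rested on 1 probe set with no second one to set beside it.

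Material labelled as rat spinal cord had been put on 18 single-channel Affymetrix expression arrays. For 6 arrays, BMP (bone morphogenetic protein, which signals through SMAD proteins) had been added at 10 ng/mL. For another 6, CNTF (ciliary neurotrophic factor, a cytokine acting through gp130 and STAT3) had been added at the same dose, and the last 6 were controls. The labels give 4 days for both additions and no time for the controls. They name no strain, age, culture method, cell type or BMP family member, and all 18 carry an entry "14 NT" that was not interpreted. A number from 1 to 6 in the titles occurs once in each group, and arrays are named by group and number. Separate cultures or animals are not stated. The p-values therefore rest on array-to-array spread alone, some or all of which could be technical.

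Oligodendrocyte precursors divide in response to PDGF-A, which they bind with the receptor encoded by Pdgfra, and they carry the proteoglycan NG2, encoded by Cspg4, on their surface. As they commit and mature they lose both and switch on the genes of myelin. In rodent cultures, BMPs are known to hold precursors back from this path and to favour astrocytes, while CNTF is known as a survival factor of the lineage. PDGFRA also marks fibroblasts and NG2 also marks pericytes, and the tetraspanin CD9 is made by many cell types, so these 3 genes are not specific to precursors. Dbndd2 encodes a protein with a dysbindin domain and is not an established surface gene.

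The sequence before the annotated start is shown for the receptor gene Pdgfra, for Lhfpl3 and for Cd9, 2 genes that were lower with BMP and 1 that was not. Each is the stretch of 250 bases ending at the base before the start in the RefSeq promoter table (build GRCr8), at chr14:33408517-33408766, chr4:13271375-13271624 and chr4:159975359-159975608, all on the minus strand and written 5′ to 3′. Capitals mark matches, on either strand, to ACAAAG or ACAATG (SOX type), CAGCTG or CAGATG (E boxes) and GGCGCC (GC-rich SMAD type).
Pdgfra: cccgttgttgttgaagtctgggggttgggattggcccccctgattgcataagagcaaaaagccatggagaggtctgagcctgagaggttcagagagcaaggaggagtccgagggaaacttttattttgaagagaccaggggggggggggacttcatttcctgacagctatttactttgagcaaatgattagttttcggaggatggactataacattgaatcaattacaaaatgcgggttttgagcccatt
Lhfpl3: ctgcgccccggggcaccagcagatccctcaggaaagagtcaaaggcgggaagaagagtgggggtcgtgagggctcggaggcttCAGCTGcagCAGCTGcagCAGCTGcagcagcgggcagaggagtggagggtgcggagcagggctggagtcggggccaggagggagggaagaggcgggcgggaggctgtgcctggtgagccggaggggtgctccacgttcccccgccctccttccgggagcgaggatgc
Cd9: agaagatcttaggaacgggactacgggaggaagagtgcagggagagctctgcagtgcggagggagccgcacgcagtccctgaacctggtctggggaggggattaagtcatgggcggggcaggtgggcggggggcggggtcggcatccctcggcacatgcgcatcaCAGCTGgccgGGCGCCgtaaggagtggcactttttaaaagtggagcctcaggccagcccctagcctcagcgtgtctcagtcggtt

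The table held 6 of the 7 genes, Dbndd2 being the exception. Lhfpl3 had CAGCTG at 167, 158 and 149 bases before the start, inside a run of CAG and CTG triplets, and Cd9 had CAGCTG at 85 and GGCGCC at 75. Neither Pdgfra nor Cspg4, Tmem255b or Gpr17 had a match in this window. Over all 33469 promoters of the table, 12% held CAGCTG and 8.69% held GGCGCC, while ACAAAG stood in 16.3%, ACAATG in 11.1% and CAGATG in 14.0%, each in 0 of the 6 members. GC content was 47.2% before Pdgfra, 70.0% before Lhfpl3 and 64.0% before Cd9, against a median of 51.2% over all promoters. A match describes letters in this window and was not set against the array values.

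With BMP, 5 of the 6 measured genes fell and the sixth, Cd9, did not pass the test. The falls ran from 2.36-fold for Lhfpl3 to 5.19-fold for Tmem255b, and each was seen in 6 of 6 pairs of arrays with the same number. With CNTF, Cd9 rose 2.61-fold in 6 of 6 pairs and was the 1 member called. Set directly against CNTF, BMP had 4 of the 6 genes lower, Cd9 among them. These calls come from a fit that did not use the title numbers. With the number as a block, 4 members were called with CNTF and 6 in BMP against CNTF. The block called 7.57% and 15.1% of all probe sets in these comparisons. A gene was called at an adjusted p under 0.05 in limma (Benjamini-Hochberg over all probe sets). Over all probe sets, limma called 6.01% in BMP against control, 2.57% as lower, 2.32% in CNTF against control, 1.58% as higher, and 6.23% in BMP against CNTF, 2.99% as lower. The median difference of the 6 genes was -1.60 log2 in BMP against control, 0.11 in CNTF against control and -1.44 in BMP against CNTF, where the median of all named genes was 0.01, -0.005 and 0.01. The comparisons with control share the same 6 control arrays. Earlier results of these data were known when the genes were picked, and Tmem255b and Dbndd2 had been named for the size of their fall with BMP, so their share of calls is a description of these arrays.

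**Figure D1:**
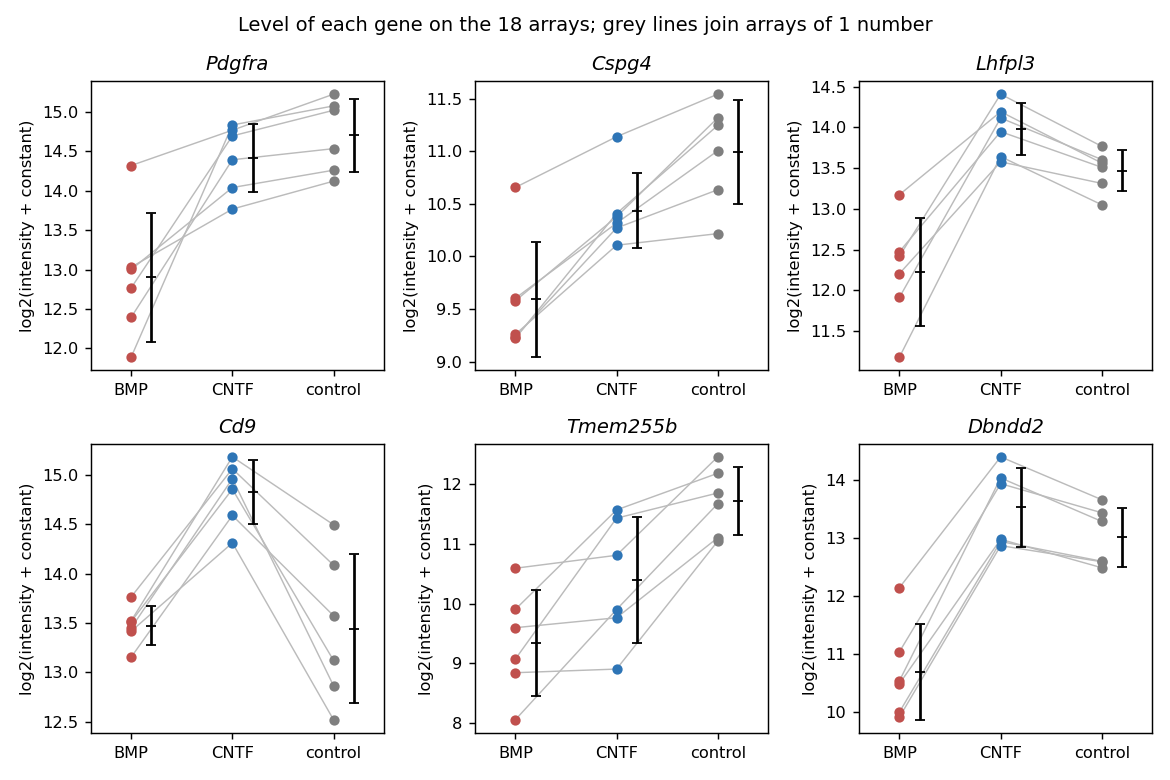
Level of each measured gene, as log2(intensity + 116.655), on the 6 arrays of each group (BMP, CNTF, control); points are arrays, grey lines join arrays of the same title number, and black bars give the mean and SD. BMP arrays lie below all control arrays for Tmem255b and Dbndd2, and BMP array 6 is the highest of the BMP arrays for every gene.

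Pdgfra encodes the receptor tyrosine kinase through which PDGF-A drives precursor division. Its intensity was 3680.8, 6856.4, 5271.3, 8080.7, 8249.7 and 20322.6 on BMP arrays 1 to 6, against 34394.9, 33087.8, 23586.1, 19497.0, 17697.4 and 38132.9 on control arrays 1 to 6. Of the 6 BMP arrays, 5 lay below every control array, and BMP array 6 lay above controls 4 and 5. On the log2(intensity + 116.655) scale, used for all differences and folds below, the mean was 12.90 ± 0.82 with BMP and 14.71 ± 0.46 in controls (SD, n = 6 each), a fall of 3.49-fold (-1.80 ± 0.31, standard error; limma adjusted p = 0.00162). On CNTF arrays Pdgfra ranged from 13822.8 to 29060.9, with a median of 23885.5. That range overlapped the controls, and the difference of -0.29 ± 0.31 was not called (limma adjusted p = 0.85, 95% interval -0.93 to 0.35), although the CNTF array was the lower one in 6 of 6 pairs, by 0.14 to 0.46. In BMP against CNTF the difference was -1.51 ± 0.31 (limma adjusted p = 0.00475).

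Cspg4, the gene of the transmembrane chondroitin sulfate proteoglycan NG2, was dim with BMP. Its BMP arrays lay at 480.0, 486.1, 495.6, 660.0, 647.4 and 1495.4, against 2308.4, 1471.3, 1072.6, 1935.9, 2433.4 and 2864.0 on control arrays 1 to 6. BMP array 6 stood above control arrays 2 and 3 and above the median of the whole table, 746.4, and the other 5 BMP arrays lay below every control and below that median. Cspg4 fell 2.64-fold (9.59 ± 0.55 with BMP against 10.99 ± 0.49 in controls, -1.40 ± 0.25, limma adjusted p = 0.00249). On CNTF arrays it lay between 985.1 and 2135.3 with a median of 1184.7, lower than the control in 6 of 6 pairs. The difference from control was -0.56 ± 0.25 and was not called (limma adjusted p = 0.398). With the number as a block it was (adjusted p = 0.0193). BMP against CNTF gave -0.84 ± 0.25, which just missed the threshold (limma adjusted p = 0.0546) and passed it with the block (adjusted p = 0.000501) and without BMP array 6 (-1.06, adjusted p = 0.00575).

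Lhfpl3 encodes a membrane protein with 4 predicted spans of the lipoma HMGIC fusion partner-like family, whose transcript is enriched in precursors of the mouse brain. BMP arrays ranged from 2208.9 to 9136.3 with a median of 4990.3, against 8367.4 to 13827.8 with a median of 11764.2 in controls. The ranges met through 1 array each, BMP array 6 and control array 1. Lhfpl3 fell 2.36-fold with BMP (12.23 ± 0.66 against 13.47 ± 0.25, -1.24 ± 0.23, limma adjusted p = 0.00334). On CNTF arrays it lay at 12665.1, 21612.9, 17631.7, 12112.6, 15682.7 and 18604.8, and 4 of the 6 stood above every control. The CNTF difference of 0.51 ± 0.23 was not called (limma adjusted p = 0.4, and 0.0581 with the block) while the CNTF array was higher in 6 of 6 pairs, by 0.27 to 0.64. All 6 BMP arrays lay below all 6 CNTF arrays (-1.75 ± 0.23, 3.36-fold, limma adjusted p = 0.000143).

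Cd9, the gene of a tetraspanin that binds integrins and immunoglobulin superfamily proteins, had another pattern. Its BMP arrays were close together at 11589.2, 8997.4, 11643.5, 10819.5, 11071.3 and 13805.3, against 8786.7, 12074.8, 23000.7, 5749.1, 7332.5 and 17278.6 on control arrays 1 to 6. Every BMP array lay inside the control range, which was spread by controls 3 and 6 at the top and 4 and 5 at the bottom. The SD was 0.20 log2 with BMP and 0.75 in controls. The difference was 0.03 ± 0.25 (limma adjusted p = 0.975, 95% interval -0.50 to 0.56), with 3 pairs higher and 3 lower, and it was below 0 without control 1, 4 or 5 or without BMP array 6. With CNTF the gene stood at 29574.1, 24567.6, 37148.6, 20231.7, 31836.5 and 34149.6, and 5 of these 6 arrays lay above every control. It rose 2.61-fold (14.83 ± 0.32 with CNTF against 13.44 ± 0.75 in controls, +1.39 ± 0.25, limma adjusted p = 0.00387). The BMP arrays all lay below the CNTF arrays, by 1.36 ± 0.25 log2 on average (2.56-fold, limma adjusted p = 0.00251).

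Tmem255b encodes a transmembrane protein whose role is little known. It was at 149.3, 841.2, 421.1, 342.7, 657.9 and 1427.8 with BMP, against 3147.5, 4533.3, 3582.0, 1997.9, 2083.2 and 5510.1 on control arrays 1 to 6. The groups did not overlap. Tmem255b fell 5.19-fold with BMP (9.34 ± 0.89 against 11.72 ± 0.57, -2.38 ± 0.44, limma adjusted p = 0.00304), and 4 of the 6 BMP arrays lay below the table median. On CNTF arrays it was at 839.2, 2922.9, 2645.2, 362.4, 752.4 and 1678.5, and 4 of these lay below every control. The CNTF difference was -1.32 ± 0.44, lower in 6 of 6 pairs and not called (limma adjusted p = 0.166), though with the block its adjusted p was 0.00945. BMP against CNTF gave -1.05 ± 0.44 (limma adjusted p = 0.204, and 0.0198 with the block). In numbers 4, 5 and 6 that difference was -0.06, -0.17 and -0.22, and in numbers 1, 2 and 3 it was -1.85, -1.67 and -2.36.

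Dbndd2, whose human counterpart binds casein kinase 1, was at 845.5, 1318.5, 905.6, 1368.8, 1987.0 and 4413.6 with BMP, against 6053.5, 5627.0, 6088.0, 9881.4, 10973.4 and 12847.3 on control arrays 1 to 6. The highest BMP array lay below the lowest control. Dbndd2 fell 5.01-fold (10.69 ± 0.82 against 13.01 ± 0.51, -2.32 ± 0.35, limma adjusted p = 0.00087). With CNTF it was at 7367.9, 7952.7, 7747.8, 16710.5, 15597.4 and 21539.0, higher than its control in 6 of 6 pairs, by 0.28 to 0.75. The difference of 0.52 ± 0.35 was not called (limma adjusted p = 0.679) and was with the block (adjusted p = 0.0307). BMP against CNTF gave -2.84 ± 0.35, or 7.17-fold, with no overlap (limma adjusted p = 6.29e-05). In all 3 groups the arrays of numbers 4, 5 and 6 lay above those of numbers 1, 2 and 3.

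**Figure D2:**
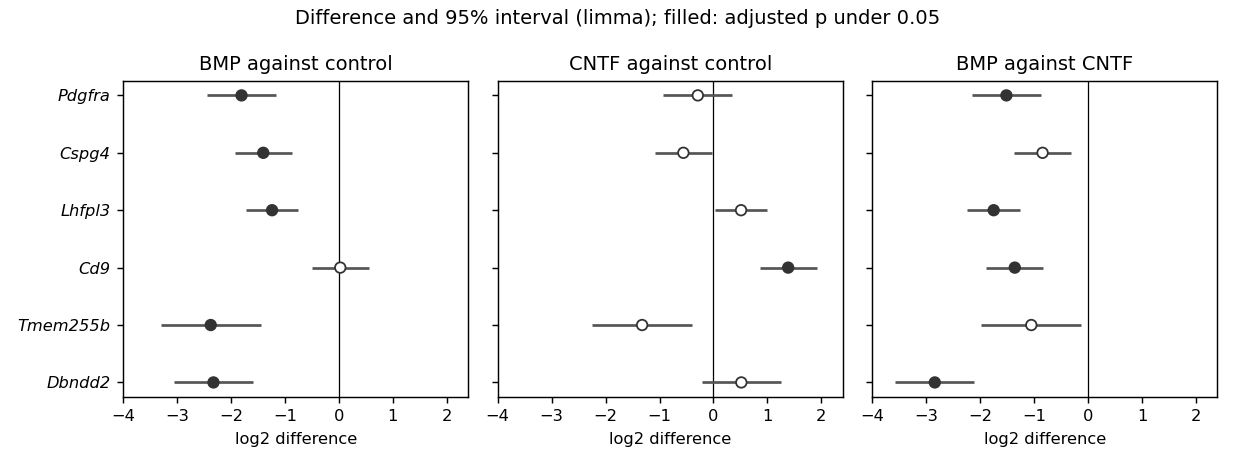
Log2 difference of each gene in the 3 comparisons with limma's 95% interval, from the fit without the title number as a block. Filled points have an adjusted p under 0.05. In all, 5 genes are filled and below 0 in BMP against control, Cd9 is the filled one in CNTF against control, and all 6 points lie below 0 in BMP against CNTF.

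Tmem255b and Dbndd2 were the 2 genes of 6 with BMP and control arrays fully apart; 1.19% of all probe sets were lower with BMP without overlap. Both had been named for the size of this fall, so nothing is read from that share. With the block, members called numbered 5 in BMP against control, 4 in CNTF against control (Cd9 and Dbndd2 higher, Cspg4 and Tmem255b lower) and 6 in BMP against CNTF, where 16.7%, 7.57% and 15.1% of all probe sets were called. The block took out level differences between numbers.

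The size of the BMP difference was not the same in every number. For Pdgfra it was -3.18, -2.25, -2.14, -1.26, -1.09 and -0.90 log2 in numbers 1 to 6, each number having its own control. Lhfpl3 gave -1.87, -1.35, -1.69, -1.11, -1.03 and -0.39. Tmem255b gave -3.62, -2.28, -2.78, -2.20, -1.51 and -1.87. For these 3 genes, numbers 1, 2 and 3 had larger falls than numbers 4, 5 and 6. Dbndd2 did not divide in this way, at -2.68, -2.0, -2.60, -2.75, -2.40 and -1.52, and neither did Cspg4, at -2.02, -1.40, -0.96, -1.40, -1.74 and -0.89. Number 6 had the smallest fall for 4 of the 5 genes and number 5 for Tmem255b. The median over the 5 genes was -2.68 in number 1 and -0.90 in number 6. With CNTF no such division was seen for Pdgfra, at -0.24, -0.33, -0.14, -0.22, -0.35 and -0.46. The number may stand for a batch, a culture or an animal; the labels do not say which.

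**Figure D3:**
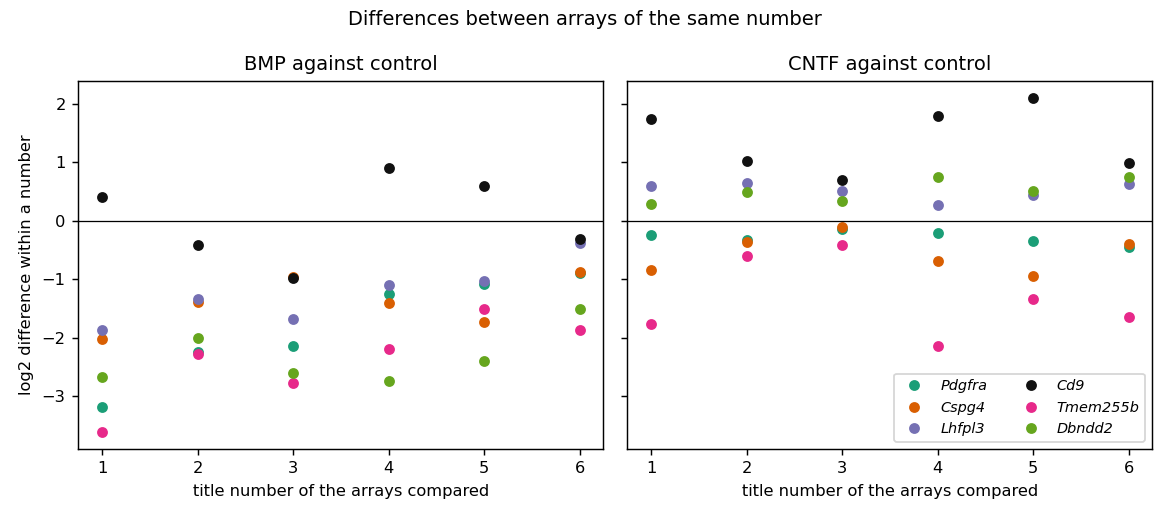
Log2 difference of each gene between the BMP and control arrays (left) and the CNTF and control arrays (right) of each title number; numbers have no order. All points but those of Cd9 are below 0 on the left, while on the right Cd9, Lhfpl3 and Dbndd2 are above 0 and Pdgfra, Cspg4 and Tmem255b below 0 in every number.

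Among themselves the members were unequally alike. Likeness was measured as the root mean square distance between log2 profiles, each centred on its mean over the 18 arrays. Pdgfra and Lhfpl3 were closest (0.52), with Pdgfra and Cspg4 next (0.52), and Cd9 and Tmem255b were farthest apart (1.41). The nearest profiles among all named genes were those of Rap1gap, Pcdh15 and Sh3d19 for Pdgfra (0.26, 0.29 and 0.29) and of Lnx1, B3galt5 and Plpp4 for Cspg4 (0.31, 0.32 and 0.32). Pcdh15, a protocadherin, was on the list of other precursor genes. Lhfpl3 was nearest to the myelin enzyme gene Cnp, to Bcas1, a gene of early myelinating cells, and to Plppr5 (0.31, 0.31 and 0.32). Tmem255b was nearest to B3gat2, Sh3bp4 and Olig2 (0.55, 0.60 and 0.62), Olig2 being a transcription factor of the whole lineage. Dbndd2 was nearest to Apod, Map7 and Gal3st1 (0.53, 0.54 and 0.54), of which Gal3st1 makes the myelin lipid sulfatide. Cd9 was nearest to Reg3b, Lrrc42 and Pdlim4 (0.40, 0.44 and 0.45), which differed by 1.10, 0.97 and 1.51 in CNTF against control and by -0.18, -0.26 and -0.01 in BMP against control.

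The other ligands and receptors of the PDGF family were measured beside Pdgfra. Pdgfa, the gene of the ligand, differed by -0.67 ± 0.22 with BMP, lower in 6 of 6 pairs and not called (limma adjusted p = 0.078, and 0.00582 with the block). Pdgfd rose with BMP (9.07 ± 0.85 against 7.86 ± 0.61, +1.21 ± 0.34, limma adjusted p = 0.0417), at a level below the table median of 9.75. Pdgfrb, the receptor of pericytes, differed by 0.26 ± 0.35 (limma adjusted p = 0.777), and Pdgfc and Pdgfrl by 0.14 and 0.22. With CNTF, Pdgfc rose (+1.16 ± 0.30, limma adjusted p = 0.0466). Without Pdgfra, 1 of 5 measured genes rose and 0 fell with BMP, and the same counts held with CNTF. Over all named genes, 4.21% rose and 3.02% fell with BMP, and 2.03% rose and 0.823% fell with CNTF. With the block, Pdgfa was called as lower with BMP.

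Where 4.21% of all named genes rose and 3.02% fell with BMP, 1 of 12 tetraspanins and CD9 partners other than Cd9 rose and 2 fell. With CNTF 2 of the 12 rose, against 2.03% of all named genes. Those called with BMP were the tetraspanin Cd151 (+0.55 ± 0.14, limma adjusted p = 0.0224), the CD9 partner Igsf8 (-0.80 ± 0.23, limma adjusted p = 0.0388) and Tspan2, a tetraspanin of oligodendrocytes (-1.22 ± 0.36, limma adjusted p = 0.0491). With CNTF the late endosomal tetraspanin Cd63 rose (+0.49 ± 0.11, limma adjusted p = 0.0137), as did Ptgfrn, which encodes a CD9 partner (+0.72 ± 0.16, limma adjusted p = 0.0222). Cd81, another tetraspanin gene, differed by 0.09 ± 0.15 with BMP and 0.08 ± 0.15 with CNTF (limma adjusted p = 0.819 and 0.942). With the block, 3 rather than 1 rose with BMP, Cd63 and Cd82 being added, and 3 rose with CNTF. No relative of Lhfpl3, Tmem255b or Dbndd2 was called against control, with 0 of 6 in either comparison. In BMP against CNTF, Lhfpl2 was called as lower (-0.93 ± 0.28, limma adjusted p = 0.0499). Lhfpl2 and Tmem255a differed by -0.72 and -0.30 with BMP, and Lhfpl4, Lhfpl6, Dbndd1 and Dtnbp1 by -0.14, 0.18, -0.04 and -0.12. With the block, Lhfpl2 was called with BMP and Dtnbp1, at -0.20, with CNTF (limma adjusted p = 0.0207 and 0.0279). Of 7 measured receptors related to GPR17, 0 were called and 5 lay below the table median on all 18 arrays.

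Other genes of the lineage fell with BMP too. Of 16 measured precursor genes outside the members, 10 fell and 1 rose (median -0.99), where 3.02% of all named genes fell and 4.21% rose (median 0.01). Pcdh15, the extracellular matrix gene Tnr, Sox6 and the secreted C1ql1 had the smallest adjusted p among them. They differed by -2.27 ± 0.38, -2.33 ± 0.41, -0.89 ± 0.17 and -2.05 ± 0.40 (limma adjusted p = 0.00154, 0.00202, 0.0038 and 0.0045). Of 23 genes of committed and myelinating cells, 13 fell and 0 rose (median -1.22), with Tcf7l2 at -1.0 ± 0.16, Cnp at -1.35 ± 0.22, Gal3st1 at -2.07 ± 0.35 and the deacetylase gene Sirt2 at -1.21 ± 0.22 (limma adjusted p = 0.00127, 0.00137, 0.00146 and 0.0022). With CNTF 1 of the 16 precursor genes fell, Rgcc, and 0 of the 23 were called by limma (medians -0.24 and 0.23). Over all named genes, 0.823% fell and 2.03% rose with CNTF. With the block, the precursor genes lower with BMP numbered 12, Bcan and Rgcc being added, and the committed and myelinating genes 16, Mbp, Enpp6 and Car2 being added, with Aspa higher. With CNTF the block added Bcan as lower and Mag and Cldn11 as higher. Of all 31042 probe sets, the block called 2352 as lower with BMP, and 1049 as lower and 1300 as higher with CNTF. In BMP against CNTF 7 of the 16 were lower and 1 higher, and 16 of the 23 were lower. Over all named genes, 3.74% were lower and 3.74% higher in that comparison. Fewer cells of the lineage and less of these transcripts per cell cannot be told apart in such bulk material.

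**Figure D4:**
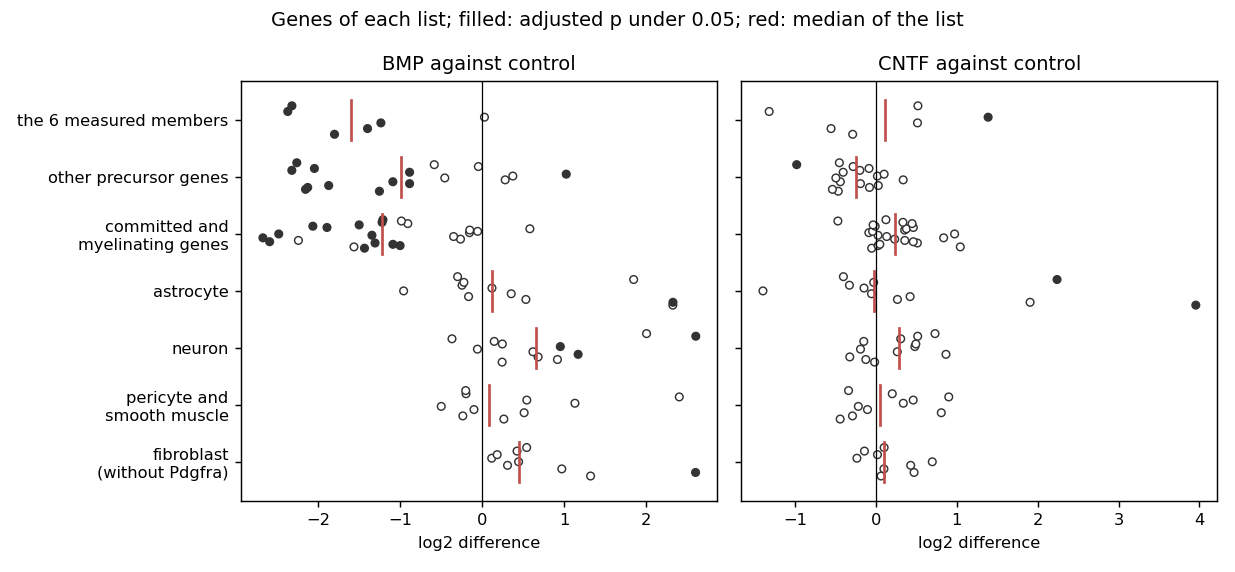
Log2 differences of the genes of 7 lists in BMP against control (left) and CNTF against control (right); each point is a gene, filled at an adjusted p under 0.05, and red bars are list medians. In BMP against control the 3 lineage lists have medians of -1.60, -0.99 and -1.22, and the medians of the other 4 lists lie above 0.

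Markers of other cell types were measured beside these falls. With BMP, 3 of 12 neuron markers rose (Nefl, Gad1 and Stmn2), 1 of 11 astrocyte markers (Aqp4), 1 of 9 fibroblast markers other than Pdgfra (Col1a2), 1 of 7 endothelial markers (Tek) and 0 of 10 pericyte and smooth muscle markers, and none of these fell. Over all named genes, 4.21% rose and 3.02% fell with BMP. The summed intensity of the 9 fibroblast markers was 7517.2 to 33203.6 on BMP arrays and 3852.6 to 11493.5 on control arrays, and that of the 10 pericyte and smooth muscle markers 6414.1 to 47782.5 on BMP arrays and 3440.8 to 9513.5 on control arrays. Both sums overlapped between the groups. The brightest of these genes with BMP were Tagln and Acta2 (2.41 and 1.13, not called) and Col1a2, Col3a1 and Col1a1 (2.61, 0.97 and 1.32, the first called). Of the remaining pericyte and smooth muscle markers, Pdgfrb, Kcnj8 and Des were above 0 (0.26, 0.51 and 0.54, not called). Rgs5, Abcc9, Anpep, Notch3 and Myh11 were below 0 (-0.50 to -0.10, not called). The median difference was 0.08 over the 10 pericyte and smooth muscle markers and 0.44 over the 9 fibroblast markers. The 12 neuron markers summed to 99154.6 to 166290.5 with BMP and 124574.9 to 132009.7 in controls. Their median difference was 0.65 with BMP and 0.28 with CNTF. Map2 and Gap43, the brightest of them in controls, differed by -0.06 and -0.37 with BMP, and the other neuron markers were above 0. The 11 astrocyte markers summed to 172168.8 to 290109.5 with BMP and 161545.2 to 249663.8 in controls. With CNTF the astrocyte sum was 225726.0 to 353254.0, and Gfap and Clu rose (+3.96 and +2.24, limma adjusted p = 0.00708 and 0.0488), while the second probe set of Clu differed by 0.53. The SD of Gfap in controls was 2.51 log2. Aldh1l1 differed by -1.40 ± 0.43 with CNTF and -0.96 ± 0.43 with BMP (limma adjusted p = 0.118 and 0.232). S100b, Gja1, Fgfr3, Aldoc and Gjb6 were also below 0 with CNTF (-0.40 to -0.03), and Aqp4, Slc1a2 and Slc1a3 above 0, none called. Median differences over the 11 astrocyte markers were 0.12 with BMP and -0.03 with CNTF. With BMP, Gfap differed by 2.33 ± 0.78, higher in 6 of 6 pairs, and Clu by 1.85 ± 0.58, higher in 5 of 6 (limma adjusted p = 0.0867 and 0.0679, and 0.0169 and 0.0131 with the block). With the block, genes higher with BMP numbered 7 neuron, 3 astrocyte, 4 fibroblast and 2 pericyte and smooth muscle markers, and 1 neuron marker (Gap43) was lower. With CNTF they numbered 3, 3, 1 and 1, with 1 neuron and 1 astrocyte marker lower. Of all 31042 probe sets, the block called 2824 as higher with BMP and 1300 as higher with CNTF. All 10 microglia markers and all 7 endothelial markers lay below the table median on every array, and no marker was at 0. None of 10 cell division genes was called in either comparison with control. Their summed intensity ranged from 5229.6 to 141988.0 on control arrays, a spread at which a change could go uncalled. Their median difference was 0.52 with BMP and 0.29 with CNTF. The part of other cell types in the members' differences was not tested.

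The direct targets of each factor give the background of the additions. Of 12 BMP-SMAD targets, 2 rose with BMP (Bambi, +1.5 ± 0.35, limma adjusted p = 0.0139, and Atoh8, +0.84 ± 0.22, limma adjusted p = 0.0295) and 0 were called with CNTF by limma. With BMP, Id1, Id3 and Smad7 were below 0 (-0.50, -0.21 and -0.08). Id2, Id4, Smad6, Msx1, Msx2, Nog and Grem1 were above 0 (0.16 to 0.70). These are values of the brightest probe sets. Other probe sets differed by 0.77 for Id2, 0.33, -0.08 and 0.27 for Id4, and -0.06, 0.32 and 0.67 for Smad6. Those of Msx2 differed by 0.50 and -0.26 and those of Smad7 by -0.06 and 0.37. On the brightest probe sets, none of these genes was called without the block, and the list median was 0.33. The mean level of the called Bambi was 9.62 with BMP and 8.12 in controls, below the table median of 9.75. Of 9 gp130-STAT3 targets, 8 rose with CNTF, Cebpd and Socs3 with the smallest adjusted p (+3.78 ± 0.19 and +3.17 ± 0.18, limma adjusted p = 2.93e-10 and 3.15e-09). With BMP, Cebpd and Fos of this list rose as well and Bcl3 fell (+0.82, +1.08 and -0.75, limma adjusted p = 0.0113, 0.0434 and 0.0387), each on its brightest probe set, and other probe sets differed from control by 0.60 and -0.12 for Cebpd, -0.17 for Fos and -0.24 and -0.03 for Bcl3. With the block, Id2 of the BMP-SMAD list (+0.37, limma adjusted p = 0.00279) and Il6st and A2m of the gp130-STAT3 list were also called as higher with BMP.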

How the data were processed

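The deposited table gave 1 linear intensity per probe set and array (31099 probe sets, 18 arrays). How the authors summarised and scaled probes is not given in the sources used. Array medians were 666.5 to 817.2, and means after trimming 2% at each end 2500.68 to 2500.78, so the deposited scaling was kept. For arrays, their number limits the precision. Differences were taken on log2(intensity + 116.655), where 116.655 is the table's 20th percentile; this understates folds of dim genes. The 57 control probe sets were left out. Symbols came from the platform annotation; 20826 probe sets had 1 symbol, 436 several and 9780 none, and 20758 identifiers matched current RefSeq genes with 0 symbols changed. The identifier of Lhfpl3 was not current and was matched by symbol. Where several probe sets carried a symbol, the brightest stood for the gene.

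limma 3.58.1 (R 4.3.3; lmFit on 3 group means over 18 arrays, eBayes with intensity trend, two-sided, Benjamini-Hochberg over 31042 probe sets) gave all p-values, and ± after a difference is its standard error. Alternatives were the title number as a block, other constants, quantile normalization, a filter on dim probe sets, only the groups compared, no trend, the mean over probe sets, and leaving out each array or number. Same-numbered arrays deviated together in 18 of 18 pairs (r 0.122 to 0.491), and 16 of 18 arrays were most like their own number in both other groups. The numbers were therefore taken as pairing in the block fit and in the pairwise differences. The main fit, which gave the calls unless the block is named, did not use them. Genes were named by a rule: the members, called list genes with the smallest adjusted p (up to 4 with BMP and 2 with CNTF), the 3 nearest profiles, and relatives of members. Nxph1 falls outside it, as do list genes named because they were called with the block alone. So do genes named to show which markers carry a sum or how the rest of a list differed. All of these were chosen after their values were seen. The members and lists were chosen with earlier results of these data known. Lists are described by counts and medians, with no test. Promoter sequences are RefSeq's, build GRCr8.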

Additional observations from a re-analysis of the deposited data

Results flagged for a closer look

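In 2 of 18 groups of 6 arrays (6 genes in 3 groups), 1 array lay far from the others, with a gap to its nearest neighbour, as a share of the group's range, above Dixon's 95% critical value. Chance alone flags about 1 in 20 groups. Both were Cspg4 on arrays of number 6. BMP array 6 was at 10.65 log2, the next highest BMP array at 9.60 (share 0.735). CNTF array 6 was at 11.14 and the next highest at 10.41 (share 0.708). Control array 6 was also the highest control for Cspg4, at 11.54. Without BMP array 6, Cspg4 differed by -1.06 in BMP against CNTF (limma adjusted p = 0.00575), against -0.84 (0.0546) with all arrays.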

How the results depend on the processing

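The 5 BMP falls and the Cd9 rise with CNTF kept their direction and call under all alternatives run, those that leave out 1 array or 1 number included (highest adjusted p 0.0312, for Lhfpl3, and 0.0427, for Cd9). With the replicate block, probe sets called numbered 5176 for BMP and 2349 for CNTF against control, and 4686 for BMP against CNTF, where the fit without it called 1865, 721 and 1934, and 4 members rather than 1 were called in CNTF against control. Cspg4 and Tmem255b were called in BMP against CNTF with the block; Cspg4 was called there also with a constant of 16, with quantile normalization and with dim probe sets left out (adjusted p = 0.0482, 0.0411 and 0.0452). Lhfpl3 in CNTF against control was not called under any setting run. The block changed no other member's call. Of the settings other than leaving out arrays, 136 single-gene results kept their call and 8 gained one. The Cd9 difference in BMP against control ranged from -0.16 to 0.24 with 1 array or number left out (below 0 without control 1, 4 or 5, BMP array 6, or number 1, 4 or 5). With arrays or a number left out, called probe sets ranged from 740 to 2097 in BMP against control (740 and 1008 without numbers 2 and 3), from 366 to 795 in CNTF against control (389, 420, 366 and 406 without numbers 2, 3, 5 and 6) and from 1111 to 1985 in BMP against CNTF (1111, 1214 and 1190 without numbers 2, 3 and 5). These leave out 3 arrays at once; the cause was not tested.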

Other observations

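Nxph1, which encodes a secreted ligand of neurexins, was the 1 risen gene among 16 other precursor genes with BMP (13.33 ± 0.33 with BMP against 12.31 ± 0.59 in controls, +1.03 ± 0.23, limma adjusted p = 0.0105, higher in 6 of 6 pairs). Rgcc, a regulator of the cell cycle, fell with CNTF (-0.98 ± 0.18, limma adjusted p = 0.0037). It differed by -0.59 ± 0.18 with BMP (limma adjusted p = 0.0566, and 0.045 with the block), and its level of 8.04 with CNTF and 9.02 in controls lay below the table median of 9.75.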
